A study of Mus musculus with 22 samples.

Results

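Muscle stem cells taken 3 days after cardiotoxin injury at ZT4 were compared with muscle stem cells of uninjured muscle at ZT4. By the sample titles, 4 libraries of day 3 and 3 uninjured libraries make up this comparison, which is 7 of the 22 libraries in all. Both groups came from hindlimb muscles of Pax7-zsgreen mice, in which the fluorescent protein ZsGreen reports Pax7 expression, and ZsGreen-positive cells were collected from both. All mice were perfused with cold saline and a mild paraformaldehyde fixative that was then quenched with glycine, so the RNA is that of cells fixed in the animal. ZT4 is zeitgeber time 4, in hours after lights on. The labels attach ZT4 to the injury. They leave the clock time of collection unstated, as they do the sex and age of the mice. Whether the libraries of a group are separate mice is also unstated, so the p-values measure only spread between libraries. All 22 libraries were fitted in 1 model, so the other libraries also shape the filter, the scaling and the spread behind each p-value. Values are set beside those of 4 libraries of day 1 at ZT4, and of 4 of day 3 and 3 uninjured ones at ZT16. The libraries of day 1 at ZT16 entered the model only.

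Cardiotoxin is a snake toxin that kills myofibers and spares most stem cells beside them. In uninjured muscle these stem cells are quiescent, express Pax7 and depend on Notch signalling. After injury they enter the cell cycle and express Myod1, and their progeny then express Myog, leave the cell cycle and fuse into new fibers that first make embryonic forms of the contractile proteins. Macrophages and other leukocytes fill the injured tissue over the same days.

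The 7 libraries held 5965957 to 8108753 estimated counts. Day 3 libraries had 23267, 20759, 17101 and 17422 genes detected and uninjured libraries 17969, 17376 and 15875, so that day 3 replicates 1 and 2 stood apart by genes detected. On a principal component analysis of the 7 libraries the first component separated the groups and held 78.9% of the variance, while the second (8.2%) set uninjured replicate 3 (−69.94) apart from the other two (38.93 and 41.01). Replicates correlated at 0.966 to 0.9769 at day 3 and at 0.9356 to 0.9639 in uninjured muscle (Pearson's r of log2 levels across genes). Levels are CPM, counts scaled to a common library total, in the order of the replicate numbers. Changes are log2 fold changes of day 3 over uninjured ± SE, with p-values of edgeR's quasi-likelihood test adjusted over 15084 genes. That test reports no SE, so the SE is the absolute log2 fold change divided by the square root of its F statistic. Pax7 was detected in all 7 libraries. In bulk libraries, fewer cells of a type and less RNA per cell cannot be told apart.

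At a threshold of 0.05, 10104 genes passed (67%), with 5052 higher at day 3 (33.5%) and 5052 lower (33.5%). Without day 3 replicates 1 and 2, 4732 were higher and 4528 lower, and without uninjured replicate 3, 4974 and 4710. At least 2-fold, 3124 genes were higher (20.7%) and 3380 lower (22.4%). The CPM ranges of the groups did not overlap for 9672 genes (64.1%), and the median log2 fold change of all genes tested was −0.03. Counts within a gene list are read against these shares, since a list with about 33.5% of its members higher does not stand out from all genes.

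The myogenic transcription factors split by stage. Pax7 (chromosome 4, 139737062 to 139833528, GRCm38), the factor that marks the stem cells and the gene that drives the reporter, had 23.5, 22.9, 18.1 and 21.9 CPM at day 3 and 296, 349 and 345 CPM in uninjured muscle. All 4 day 3 libraries lay far below all uninjured ones (log2 −3.93 ± 0.16, adjusted p = 1.27e-15). Its relative Pax3 was also lower (0.394 to 2.51 CPM at day 3, 11 to 14.9 in uninjured; −3.26 ± 0.55). So was Myf5, a determination factor of early myogenic cells, at 76.3, 75.4, 38.3 and 65.3 CPM at day 3 against 515, 566 and 658 CPM in uninjured muscle (−3.18 ± 0.25). Msc, which encodes a repressor of myogenic differentiation, fell by a similar factor (−3.68), and Myf6 was lower at a low level in both groups (1.34 to 2.1 CPM at day 3, 7.9 to 9.45 in uninjured).

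Myod1, the determination factor of activated myoblasts, had 724, 744, 759 and 745 CPM at day 3 and 303, 197 and 280 CPM in uninjured muscle. The day 3 libraries were close to each other and all higher (log2 1.51 ± 0.13, adjusted p = 2.55e-10). Myog (chromosome 1, 134289989 to 134292548), which drives terminal differentiation, had 1620, 1680, 1380 and 1640 CPM at day 3 and 533, 323 and 96.6 CPM in uninjured muscle (2.31 ± 0.50). The groups did not overlap, but the uninjured libraries spread widely, with replicate 1 highest and replicate 3 lowest. Mef2a and Mef2c, partners of the myogenic factors in activating muscle genes, were higher at 2.88 and 2.47. Of the 16 regulators listed, 7 rose, 7 fell and 2 did not pass, with a median of 0.02.

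The 250 bases before the RefSeq start of Myog (GRCm38.p6, chr1:134289754-134290003, plus strand) are shown because the gene separates the groups and its promoter is a known target of its own family, which binds E-boxes. Capitals mark the E-boxes, letters CANNTG, which read the same on both strands.
Myog: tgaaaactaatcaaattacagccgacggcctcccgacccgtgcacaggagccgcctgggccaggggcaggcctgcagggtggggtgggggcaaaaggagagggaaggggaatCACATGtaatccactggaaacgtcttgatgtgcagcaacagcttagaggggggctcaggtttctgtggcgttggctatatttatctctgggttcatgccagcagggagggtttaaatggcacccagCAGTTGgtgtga
The window held 2 E-boxes, and 69.3% of all 26994 genes in the table held at least 1 in a window of the same length, so the match is a description only. An E-box stood in the windows of 3 of 9 myogenic regulators (33.3%) and of 6 of 11 fusion and adhesion genes (54.5%).

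**Figure D1:**
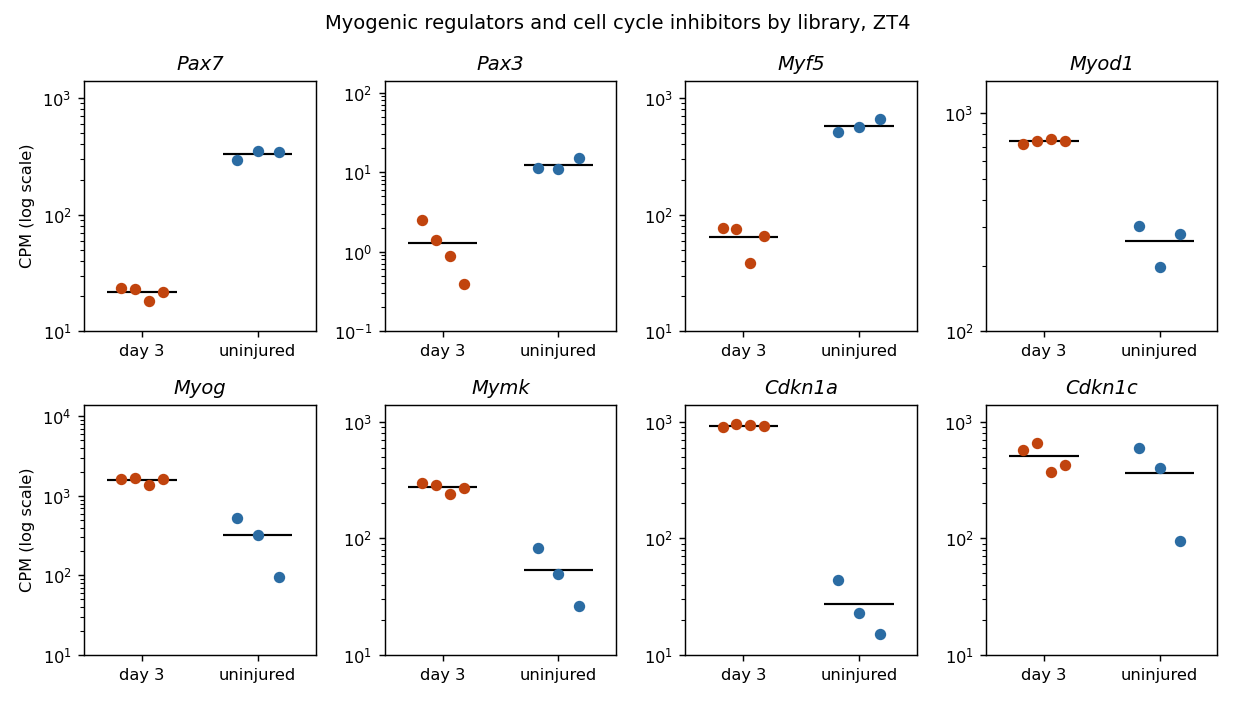
CPM (log axis) of 8 genes in each library at ZT4, with day 3 left of uninjured. Points are libraries and the line is the group mean. Pax7, Pax3 and Myf5 were lower in every day 3 library, Myod1, Myog, Mymk and Cdkn1a were higher in every one, and Cdkn1c overlapped between the groups.

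Genes of quiescence and Notch signalling fell together. Of 24 listed, 20 fell, 1 rose and 3 did not pass (median −2.34). Their summed level was 1480 to 1670 CPM at day 3 and 17300 to 26100 CPM in uninjured muscle. Chodl, a membrane protein that marks quiescent stem cells in mouse muscle and stands among the stem cell markers, had 10.4, 14.7, 6.24 and 16 CPM at day 3 and 2570, 2460 and 3470 CPM in uninjured muscle (−7.90 ± 0.48). Calcr, the calcitonin receptor, which keeps mouse stem cells quiescent, had 5.02, 2.92, 2.82 and 4.85 CPM at day 3 and 242, 252 and 149 CPM in uninjured muscle (−5.77 ± 0.37). Cd34, a surface marker of quiescent stem cells, was lower (−3.95 ± 0.16), and so was Gpx3, a secreted glutathione peroxidase (−5.93 ± 0.28). For 21 of the 24 genes the groups did not overlap.

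Within the Notch pathway the receptor Notch3 had 46.3, 47.4, 37.6 and 46.4 CPM at day 3 and 383, 439 and 465 CPM in uninjured muscle (−3.27 ± 0.21). The targets Heyl, Hey1 and Hes1 were lower at −2.73, −2.40 and −2.08, and so was the ligand Jag1 (−2.69). The ligand Dll1 was the 1 member that rose, with 105, 101, 107 and 101 CPM at day 3 and 72, 57.7 and 23.7 CPM in uninjured muscle (1.01 ± 0.28). Spry1, an inhibitor of growth factor signalling that stem cells need to return to quiescence, fell (−2.25), as did Foxo1 (−4.12) and Tenm4 (−4.88).

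Both genes of the fusion machinery rose, while the wider list of fusion and adhesion genes went both ways. Mymk, which encodes the membrane protein myomaker that fusing myoblasts need, had 298, 284, 239 and 272 CPM at day 3 and 83.3, 49.9 and 26.4 CPM in uninjured muscle (2.35 ± 0.39). Mymx, which encodes its partner myomixer, had 97.5, 89, 75.9 and 85.4 CPM at day 3 and 5.87, 3.84 and 0.32 CPM in uninjured muscle (4.62 ± 0.41). All day 3 libraries were higher for both genes, and the uninjured libraries had the order of Myog, with replicate 1 highest. The membrane repair and fusion protein Myof (4.98), the caveolin Cav3 (5.18) and N-cadherin, Cdh2 (4.26), also rose. The surface proteins Cdon (−1.74) and Boc (−2.76), which signal from cell contact to Myod1, fell. Of the 17 members tested of 18 listed, 7 rose, 8 fell and 2 did not pass (median −0.25). M-cadherin, Cdh15, was barely past the threshold (−0.40 ± 0.16, adjusted p = 0.0365) and missed it under 14 of the 16 other settings.

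Sarcomere genes rose in 22 of 30 members, fell in 3 and did not pass in 5 (median 1.73). Developmental isoforms were among the widest rises. Myh3, embryonic myosin, had 349, 339, 259 and 338 CPM at day 3 and 3.61, 0 and 0.16 CPM in uninjured muscle (7.83 ± 0.68). Myh8, the perinatal myosin, had 12.2, 6.4, 2.82 and 9.71 CPM at day 3 and no count in uninjured muscle, at least 60-fold higher with a floor of 3 counts over the group. Tnnt2, a troponin T of heart and embryonic muscle, had 214, 201, 159 and 191 CPM at day 3 and 9.26, 8.54 and 7.53 CPM in uninjured muscle (4.49 ± 0.42). The groups did not overlap for these 3 genes. Actc1, cardiac actin, which developing skeletal muscle also uses, rose less and with wider uninjured spread (183 to 288 CPM at day 3, 20.5 to 86 in uninjured; 1.86 ± 0.41). The giant protein gene Ttn (4.59), the atrial light chain Myl4 (3.50) and Tpm2 (1.97) rose too.

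Several genes of mature fibers moved less or fell. Acta1, the adult skeletal actin, rose (1.27 ± 0.40). The 3 that fell were Tcap, Ckm and Myh2, a fast adult myosin (−2.86 ± 0.81), whose call was lost without uninjured replicate 2 (−1.68). Tcap, which encodes the Z-disc protein telethonin, had 2.2, 2.36, 4.31 and 6.3 CPM at day 3 and 18.9, 35.1 and 29.8 CPM in uninjured muscle (−2.86 ± 0.38). Ckm, the creatine kinase of mature fibers, had 39.7, 27.4, 64.3 and 68.9 CPM at day 3 and 91.2, 175 and 170 CPM in uninjured muscle (−1.54 ± 0.47), and its call was lost without day 3 replicates 1 and 2 (−1.09). The adult fast myosin Myh4 did not pass (5.65 to 25.3 CPM at day 3, 16 to 48.7 in uninjured), although it passed with no filter on low counts (−1.10). In 21 of the 30 sarcomere genes day 3 replicate 3 was the lowest of its group.

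Subunits of the muscle acetylcholine receptor changed in opposite directions. The receptor of fetal and denervated muscle contains the gamma subunit. Chrng, which encodes it, had 184, 177, 172 and 193 CPM at day 3 and 2.26, 0.247 and 2.72 CPM in uninjured muscle (6.73 ± 0.40). Chrnd, the delta subunit, had 227, 225, 223 and 232 CPM at day 3 and 3.95, 8.54 and 0 CPM in uninjured muscle (5.69 ± 0.50). Chrna1, the alpha subunit, had 1230, 1280, 1260 and 1320 CPM at day 3 and 380, 327 and 251 CPM in uninjured muscle (1.99 ± 0.14). All day 3 libraries were higher for these 3 subunits and lay close to each other. The beta subunit gene Chrnb1 fell instead, with 164, 175, 193 and 181 CPM at day 3 and 480, 503 and 586 CPM in uninjured muscle (−1.55 ± 0.09). Rapsn, which clusters the receptor, was lower as well (−0.99). Among calcium handling genes Casq2, a calcium store protein of slow and cardiac muscle, rose (4.50) and Mrln, a micropeptide inhibitor of the calcium pump, fell (−3.47). Of the 17 genes tested of 18, 9 rose, 5 fell and 3 did not pass (median 0.85).

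The 250 bases before the starts of the alpha and gamma subunit genes are shown because both rose and are known targets of the myogenic factors through E-boxes, again in capitals (RefSeq, GRCm38.p6; Chrna1 chr2:73580339-73580588, minus strand; Chrng chr1:87205561-87205810, plus strand).
Chrna1: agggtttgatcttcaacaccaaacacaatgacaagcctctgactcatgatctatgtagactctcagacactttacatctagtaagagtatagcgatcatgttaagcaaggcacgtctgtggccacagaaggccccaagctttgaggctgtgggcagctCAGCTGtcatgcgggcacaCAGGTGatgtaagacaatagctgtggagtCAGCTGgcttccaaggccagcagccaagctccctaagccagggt
Chrng: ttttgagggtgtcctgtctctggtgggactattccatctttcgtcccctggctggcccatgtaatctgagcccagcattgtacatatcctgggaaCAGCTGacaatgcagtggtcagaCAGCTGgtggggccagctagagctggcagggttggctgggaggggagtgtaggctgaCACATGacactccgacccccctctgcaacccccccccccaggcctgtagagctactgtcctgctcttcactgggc
Each window held 3 E-boxes, and 9 of the 10 genes of this list with an entry in the table held at least 1, against the 69.3% of all genes given above.

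Genes of mitosis and DNA replication rose without exception among those listed. All 28 mitosis genes and all 24 DNA replication genes were higher at day 3 with groups that did not overlap, with medians of 3.81 and 2.55. Plk1, the kinase of mitotic entry, had 216, 220, 257 and 242 CPM at day 3 and 13, 4.21 and 4.65 CPM in uninjured muscle (4.97 ± 0.37). Ccnb1, the cyclin of mitosis, had 442, 464, 495 and 486 CPM at day 3 and 34.2, 7.92 and 4.97 CPM in uninjured muscle (4.87 ± 0.57). Mki67, the widely used marker of cycling cells, had 142, 142, 131 and 130 CPM at day 3 and 30.3, 12.3 and 2.56 CPM in uninjured muscle (3.14 ± 0.45). The day 3 libraries varied little, and the uninjured ones had replicate 1 as the highest in 25 of the 28 mitosis genes and replicate 3 as the lowest in 24.

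Cdk1 (3.80), Ccnb2 (3.81), the anaphase activator Cdc20 (3.61), the kinesins Cenpe (4.11) and Kif2c (4.27) and the checkpoint gene Bub1b (4.04) rose alike. Among replication genes Rrm2, a subunit of the enzyme that makes deoxynucleotides, had 1290, 1420, 1490 and 1370 CPM at day 3 and 57, 24.6 and 14.7 CPM in uninjured muscle (5.42 ± 0.37). The helicase subunits Mcm3 (3.10) and Mcm4 (2.37), the nuclease Fen1 (2.33) and Rrm1 (3.32) followed with smaller changes.

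The promoter windows of 4 mitosis genes are shown because all 28 genes of the list moved one way and such promoters are known for CCAAT boxes and the cell cycle homology region, TTTGAA. Capitals mark CCAAT, or ATTGG where it lies on the other strand, and TTTGAA (RefSeq, GRCm38.p6; Cdk1 chr10:69352913-69353162, minus strand; Ccnb2 chr9:70421555-70421804, minus strand; Plk1 chr7:122159185-122159434, plus strand; Cdc20 chr4:118437344-118437593, minus strand).
Cdk1: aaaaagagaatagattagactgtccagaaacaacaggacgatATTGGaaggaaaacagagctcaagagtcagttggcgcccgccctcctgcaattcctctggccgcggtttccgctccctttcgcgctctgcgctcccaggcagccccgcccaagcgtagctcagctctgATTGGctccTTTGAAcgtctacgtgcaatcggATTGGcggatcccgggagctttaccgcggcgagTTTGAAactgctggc
Ccnb2: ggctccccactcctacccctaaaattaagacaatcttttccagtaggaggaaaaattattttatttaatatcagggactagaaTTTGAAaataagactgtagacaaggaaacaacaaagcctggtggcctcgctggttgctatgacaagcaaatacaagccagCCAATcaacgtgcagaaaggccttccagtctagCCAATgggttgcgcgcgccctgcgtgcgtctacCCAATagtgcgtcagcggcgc
Plk1: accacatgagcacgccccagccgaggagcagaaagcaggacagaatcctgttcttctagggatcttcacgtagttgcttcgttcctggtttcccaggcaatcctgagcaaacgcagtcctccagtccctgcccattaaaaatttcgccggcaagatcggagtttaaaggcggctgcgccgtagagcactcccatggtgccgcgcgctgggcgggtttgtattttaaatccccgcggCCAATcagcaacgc
Cdc20: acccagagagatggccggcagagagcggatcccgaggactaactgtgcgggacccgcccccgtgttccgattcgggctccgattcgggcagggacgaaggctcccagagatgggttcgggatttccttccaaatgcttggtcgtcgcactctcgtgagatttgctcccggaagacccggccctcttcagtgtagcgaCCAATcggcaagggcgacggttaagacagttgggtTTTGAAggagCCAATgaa
Cdk1, Ccnb2 and Cdc20 were chosen after their windows were seen to hold both motifs, and Plk1, whose window held 1 CCAAT box and no TTTGAA, is set beside them. Of the 24 mitosis genes in the table, 18 held a CCAAT box on either strand (75%) and 9 held TTTGAA on either strand (37.5%), against 37.5% and 18.3% of all genes. A CCAAT box also stood in the windows of 15 of 20 DNA replication genes (75%) and 11 of 17 clock genes (64.7%). The share was 44.4% for myogenic regulators, 36.4% for fusion and adhesion genes and 20% for synapse and calcium handling genes. TTTGAA stood in 33.3% of myogenic regulators, 27.3% of fusion and adhesion genes, 15% of replication genes and 0% of the other 2 lists. These counts describe the letters and were not tested.

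Among the inhibitors of the cell cycle p21 rose and p27 fell, while cyclins of S phase entry rose. Cdkn1a (chromosome 17, 29090976 to 29100727), which encodes the cyclin-dependent kinase inhibitor p21, which acts in the cell cycle exit of myoblasts, had 898, 952, 938 and 923 CPM at day 3 and 44, 22.8 and 15.1 CPM in uninjured muscle (5.07 ± 0.47, adjusted p = 4.84e-08). Cdkn1c, which encodes p57, had 576, 655, 373 and 429 CPM at day 3 and 592, 398 and 94.9 CPM in uninjured muscle. The groups overlapped and the gene did not pass (0.49 ± 0.45, adjusted p = 0.346), while without uninjured replicate 1 it passed at 1.16. Cdkn1b, which encodes p27, was lower (5.25 to 9.89 CPM at day 3, 16.7 to 29.6 in uninjured; −1.70 ± 0.34). The cyclins of S phase entry Ccne1 (5.28) and Ccne2 (4.42) and the kinases Cdk6 (3.57) and Cdk4 (0.90) rose, and Ccnd3 fell (−0.80). Of 21 genes of this list 14 rose, 4 fell and 3 did not pass (median 1.06).

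**Figure D2:**
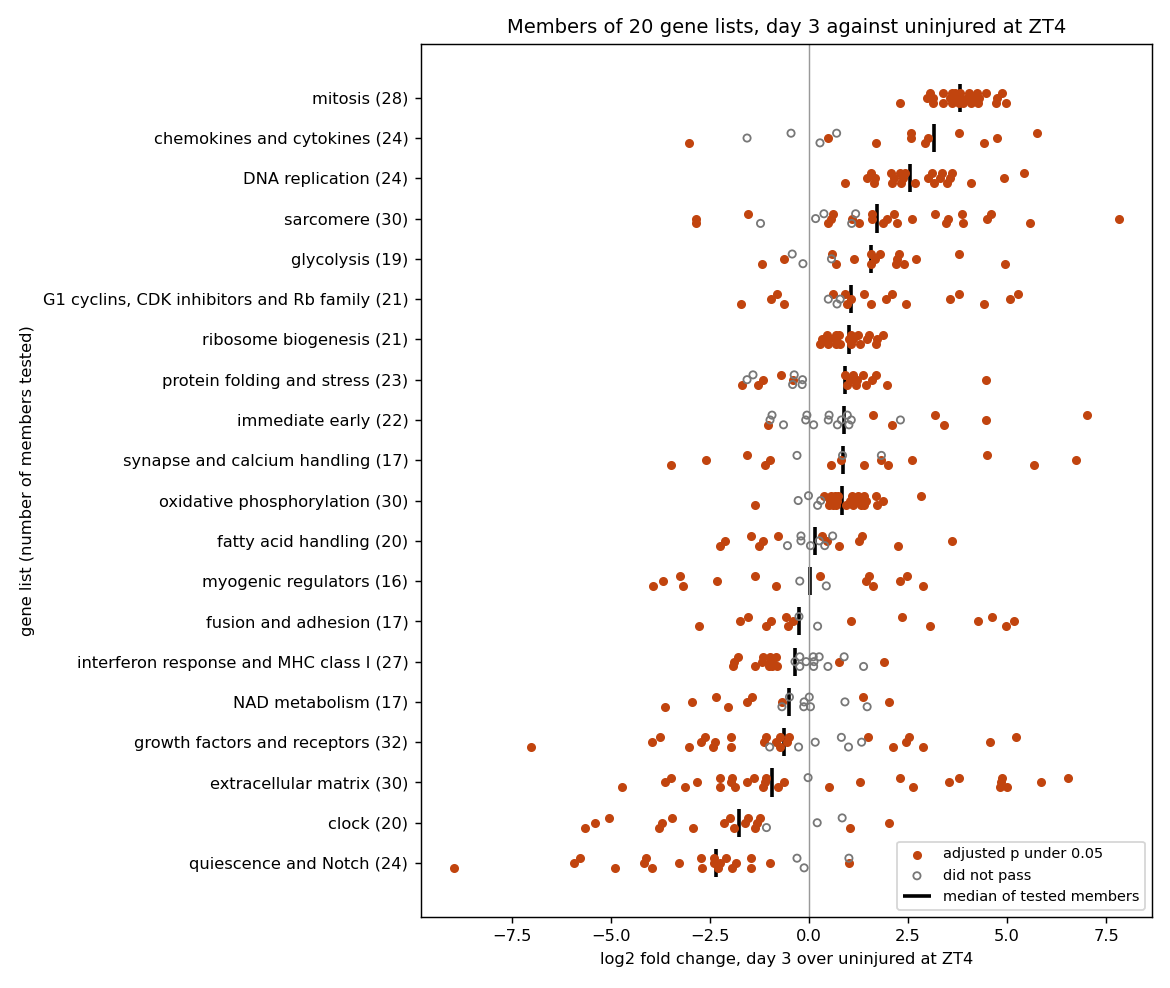
Log2 fold change of day 3 over uninjured at ZT4 (horizontal axis) for the members of 20 gene lists (vertical axis), with filled points for adjusted p under 0.05, open points for the rest and a bar for the median. Genes with 3 or fewer counts in a group are left out of the points and enter the medians at their bound or ratio. Mitosis has the highest median, 3.81, and quiescence and Notch the lowest, −2.34.

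Ribosome biogenesis genes were all higher, 21 of 21, by less than the cell cycle genes (median 1.02). Ncl, nucleolin, had 1560, 1570, 1750 and 1610 CPM at day 3 and 475, 545 and 482 CPM in uninjured muscle (1.70 ± 0.10). Npm1, nucleophosmin, had 1570, 1520, 1550 and 1460 CPM at day 3 and 342, 453 and 467 CPM in uninjured muscle (1.86 ± 0.13). The helicase Ddx21 (1.47) and the ribonucleoprotein Nop58 (1.29) rose less. For 20 of the 21 the groups did not overlap.

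In energy metabolism, 14 of the 19 genes of glycolysis were higher, 2 lower and 3 not past the threshold (median 1.58). Eno3, the muscle enolase, had 1690, 1740, 1960 and 1870 CPM at day 3 and 41.8, 56.8 and 77.9 CPM in uninjured muscle (4.95 ± 0.22), with all day 3 libraries far above all uninjured ones. Eno1, the enolase of most other cells, rose by 2.70 ± 0.10, and Pgam1 (2.41), Pgk1 (2.27), Tpi1 (2.20), Ldha (2.22) and Pkm (1.58) also rose. The exceptions that fell were the hexokinase Hk1 (−0.62) and the insulin-regulated glucose transporter Slc2a4 (−1.18), and both calls were lost without uninjured replicate 1 (−0.28 and −0.82).

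In oxidative phosphorylation 25 of 30 rose, 1 fell and 4 did not pass (median 0.83). Cytochrome c, Cycs, had 898, 875, 736 and 661 CPM at day 3 and 123, 118 and 96.1 CPM in uninjured muscle (2.82 ± 0.15), again with no overlap. Cox5a (1.86), Sdhd (1.73) and Cyc1 (1.70) rose too, and the 1 that fell was Cox6a2, the cytochrome oxidase subunit of heart and adult muscle (−1.35 ± 0.45), a call lost without uninjured replicate 3 (−1.10) and without day 3 replicates 1 and 2 (−1.23), at folds close to this one.

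Fatty acid genes went both ways, with 7 higher, 6 lower and 7 not passed of 20 tested (median 0.15). At 35% higher and 30% lower, the list did not stand out from all genes, with 33.5% each way. Acadl, the long-chain acyl-CoA dehydrogenase, rose (1.26) and its very-long-chain relative Acadvl fell (−0.79). Hadhb, of the trifunctional protein, rose (0.77), and lipoprotein lipase, Lpl, fell (−1.45).

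Of 30 matrix genes 12 rose, 17 fell and 1 did not pass (median −0.92), and the groups did not overlap for 28. Col4a1, a chain of basement membrane collagen, had 44.1, 53.4, 52.3 and 53.1 CPM at day 3 and 626, 700 and 376 CPM in uninjured muscle (−3.48 ± 0.20). Col4a2 (−3.12) and the muscle laminin chain Lama2 (−2.83) were lower as well. The laminin chain Lamb1 rose (2.62). Thbs1, thrombospondin 1, had 832, 886, 762 and 865 CPM at day 3 and 8.81, 15.8 and 1.28 CPM in uninjured muscle (6.55 ± 0.81). The uninjured libraries of Thbs1 spread over more than 10-fold and stayed below every day 3 library. Timp1 (5.85), an inhibitor of matrix proteases, and tenascin C, Tnc (4.87), rose, and Sparc fell (−1.56).

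The fibrillar collagen chain Col1a1 had 355, 561, 538 and 875 CPM at day 3 and 66.3, 40.7 and 19.4 CPM in uninjured muscle (3.78 ± 0.70). Postn, periostin, had 45, 75, 58.7 and 119 CPM at day 3 and 2.03, 3.84 and 0.801 CPM in uninjured muscle (5.01 ± 0.75). Both were lowest in day 3 replicate 1 and highest in replicate 4. Markers of fibro-adipogenic cells, the matrix-making cells of muscle, had the same extremes, with replicate 4 highest in 11 of 12 and replicate 1 lowest in 8. Among them Pdgfra, their defining receptor, had 7.53, 19.5, 12.8 and 28.7 CPM at day 3 and 0, 1.73 and 0.481 CPM in uninjured muscle (4.51 ± 1.00). Their part in the collagen result was not tested. Of these 12 markers 8 rose, 2 fell and 2 did not pass, yet their summed level was 493 to 797 CPM at day 3 and 2950 to 3350 CPM in uninjured muscle. The members behind the higher uninjured sum were Gsn, gelsolin (318 ± 55.9 CPM at day 3 and 2687 ± 181 CPM in uninjured muscle, SD, n = 4 and 3), and Dpt, dermatopontin (9.55 ± 6.92 CPM at day 3 and 379 ± 11.8 CPM in uninjured muscle).

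Among growth factors and receptors 9 rose, 17 fell and 6 did not pass of 32 tested (median −0.63). Igfbp2, an insulin-like growth factor binding protein, had 61.5, 78.6, 86.4 and 82.4 CPM at day 3 and a single count in uninjured muscle, a pooled ratio of 1800-fold (95% interval 323 to 71100), with the interval covering counting error only. Bmp4, a bone morphogenetic protein, had 4.55, 5.84, 2.67 and 6.03 CPM at day 3 and 640, 640 and 594 CPM in uninjured muscle (−7.02 ± 0.25). The fibroblast growth factor receptors Fgfr1 (−2.73) and Fgfr4 (−2.36) and the ligand Igf1 (−2.43) fell. The hepatocyte growth factor receptor Met rose (2.13). The noncoding RNA H19 rose (2.46) and Igf2, which shares its imprinted locus, fell (−1.96).

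Markers of other cell types were examined because leukocytes and other cells enter muscle after injury and could be collected with the stem cells. All 18 macrophage markers were higher, with a summed level of 947, 695, 898 and 1120 CPM at day 3 and 23, 61.5 and 57.8 CPM in uninjured muscle. The groups did not overlap for any of them (median 5.84, or 5.41 with the 5 genes at 2 or fewer uninjured counts set to their bound or ratio). Lyz2, macrophage lysozyme, had 407, 269, 372 and 422 CPM at day 3 and 4.4, 17.1 and 25.3 CPM in uninjured muscle (4.59 ± 0.60). Cd68, a lysosomal protein of phagocytes, had 50.2, 44.9, 49.3 and 57.7 CPM at day 3 and 1.13, 0.866 and 0.801 CPM in uninjured muscle (5.71 ± 0.48). Adgre1, which encodes F4/80, had 21.7, 17, 17.1 and 16.9 CPM at day 3 and 0.79, 1.73 and 0 CPM in uninjured muscle. Trem2, a receptor of phagocytes, had 8.79, 5.42, 5.2 and 7.22 CPM at day 3 and none in uninjured muscle, at least 51.2-fold higher.

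Other leukocytes gave less. Neutrophil markers had sums of 3.12 to 5.34 CPM at day 3 and 0 to 3.46 CPM in uninjured muscle, and 5 of the 9 were too low to test, with Retnlg at 0 in every day 3 library. Of the 4 tested, 2 were higher with edgeR and with DESeq2 and 0 with limma voom, namely Csf3r and Cxcr2, with 3 and 1 uninjured counts. Markers of T, NK and B cells, of which Cd3g was at 0 in all 7 libraries, summed to 0.148 to 5.81 CPM at day 3 and 0.32 to 4.21 CPM in uninjured muscle, and erythroid markers to 5.35 to 12.4 CPM at day 3 and 0.481 to 14.5 CPM in uninjured muscle. The 1 of these lymphocyte markers that was tested, Cd79a of B cells, was lower with edgeR (−2.87) and limma voom and did not pass with DESeq2. Its groups overlapped, and its call was also lost without day 3 replicate 1, 2 or 3 and without uninjured replicate 1 or 2. Mast cell markers were higher in 5 of 6, and in 3 with limma voom (21.7 to 54.4 CPM at day 3, 0.801 to 23.4 CPM in uninjured muscle). None of 10 endothelial markers passed in the edgeR test, at an unadjusted p under 0.05 or with DESeq2, and 1 passed with limma voom (20.2 to 36.3 CPM at day 3, 34.5 to 51.3 CPM in uninjured muscle; median −0.80). Under several other edgeR settings 1 or 2 were lower, among them 2 with no filter on low counts and 1 with the replicate block. Mural markers fell in 6 of 9, among them Tagln, a smooth muscle protein (−4.97), and Notch3, which stem cells also express. Schwann cell markers fell in 3 of 5 tested, and tenocyte markers rose in 2 and fell in 1 of 6. Of the 8 muscle stem cell markers 7 fell and 1 rose, the integrin Itga7 (1.06). The 7 include Cdh15, whose call was lost under most other settings, and 6 fell without day 3 replicates 1 and 2. Their sum over all 8 was 2270 to 2560 CPM at day 3, against 6140 to 7450 CPM in uninjured muscle.

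**Figure D3:**
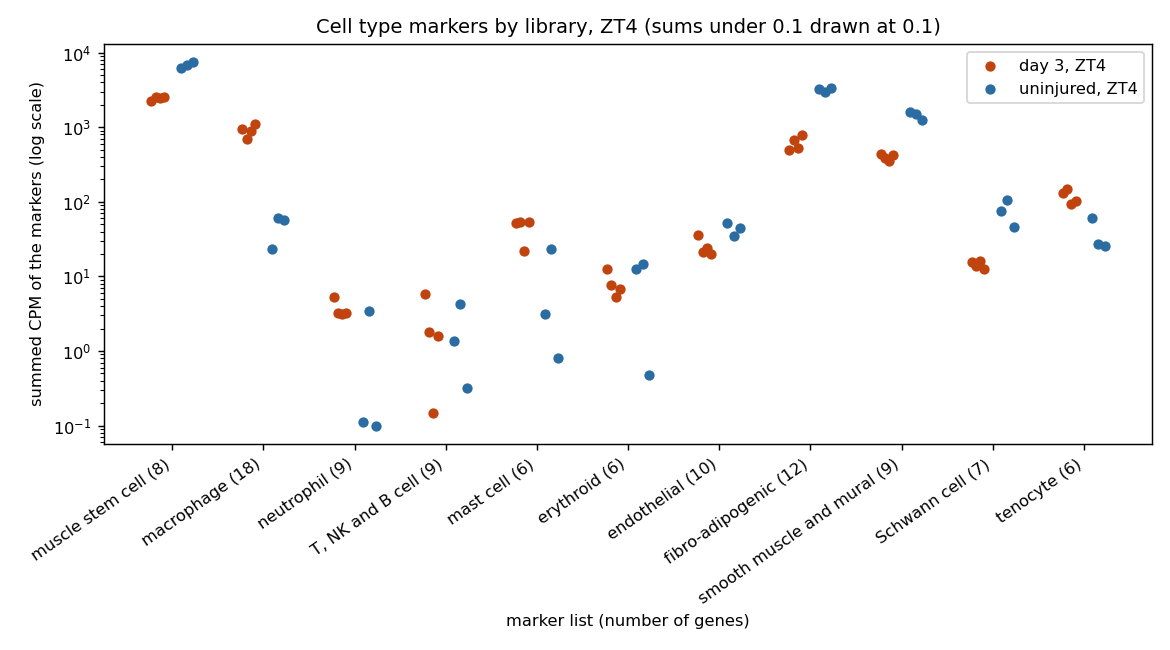
Summed CPM (log axis) of the markers of 11 cell types in each library at ZT4, with day 3 left of uninjured in each pair. Points are libraries. Macrophage markers reached 695 to 1120 CPM in the day 3 libraries and 23 to 61.5 CPM in the uninjured ones.

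Chemokine and cytokine genes rose in 18 of 24 tested, fell in 1 and did not pass in 5 (median 3.39, or 3.16 with the 8 genes at 2 or fewer uninjured counts set to their bound or ratio). Csf1, the growth factor of macrophages, had 110, 140, 160 and 120 CPM at day 3 and 20.7, 13.1 and 18.7 CPM in uninjured muscle (2.92 ± 0.18). Ccl2, which attracts monocytes, had 26.7, 24.5, 28.2 and 33.1 CPM at day 3 and 1.02, 2.1 and 3.2 CPM in uninjured muscle (3.79 ± 0.70). Both were higher in all day 3 libraries. Il33, an alarm cytokine, had 49.4, 43, 39.2 and 37.7 CPM at day 3 and 0.113, 0.124 and 2.4 CPM in uninjured muscle (5.76 ± 0.62). Il1b (7.51 to 18 CPM, at least 91.3-fold higher) and Il6 (3.12 to 5.15 CPM, at least 31.5-fold higher) had no uninjured count, and the call of Il1b was lost with limma voom. Cx3cl1, a membrane-bound chemokine, was the 1 that fell, with 6.43, 3.34, 9.21 and 9.05 CPM at day 3 and 53.4, 54.2 and 63.8 CPM in uninjured muscle (−3.02 ± 0.22). The macrophage markers moved with this list, and their part in it was not tested.

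Interferon response and antigen presentation genes were lower in 13 of 27 and higher in 3, with 11 not passed (median −0.35). H2-K1, a class I antigen-presenting molecule, had 61.7, 59.1, 72.9 and 88.9 CPM at day 3 and 183, 246 and 356 CPM in uninjured muscle (−1.88 ± 0.20). H2-D1 (−0.94) and the signal transducers Irf9 (−1.91) and Stat2 (−1.36) fell with it. Uninjured replicate 3 was the highest of its group in 17 of the 27. The antiviral gene Rsad2 rose (1.89), and so did Oas1a, with 2 uninjured counts and a pooled ratio of 93.4-fold (95% interval 25.6 to 776).

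Immediate early genes, which respond to stimulation and to cell isolation within minutes, mostly did not pass at ZT4 in the fit of all 22 libraries. Of 22, 7 rose, 1 fell and 14 did not pass (median 0.89), and the number past the threshold was 5 to 18 under other settings. The 18 came from the setting with no filter on low counts. In a fit of the 7 libraries alone 13 of 21 tested passed, 10 higher and 3 lower (median 0.84), as did 9168 of all 13977 genes. The larger fit holds uninjured ZT16 libraries with sums of 91600, 5240 and 78700 CPM for this list. Their part in the spread was not tested. Fosl1, of the Fos family, had 154, 176, 194 and 171 CPM at day 3 and 2.15, 1.24 and 0.32 CPM in uninjured muscle (7.02 ± 0.48). Klf6 (1.62) and Klf2 (3.42) rose too. Fos had 665, 732, 606 and 839 CPM at day 3 and 320, 540 and 196 CPM in uninjured muscle, higher in every day 3 library yet not past the threshold (1.01 ± 0.82, adjusted p = 0.287). It passed in an edgeR fit of the 7 libraries alone (1.04, adjusted p = 0.0106). It also passed in the edgeR fit with no filter on low counts (1.13, adjusted p = 5.57e-20). That p-value is far smaller at a similar fold, and the reason was not tested. Jun overlapped between the groups (634 to 751 CPM at day 3, 206 to 838 in uninjured), yet it too passed in the edgeR fit with no filter (0.63, adjusted p = 1.07e-06).

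Among genes of protein folding and stress 12 rose, 5 fell and 6 did not pass of 23 (median 0.92). The chaperone of the endoplasmic reticulum Hsp90b1 (1.60) and the disulfide isomerase Pdia6 (1.43) rose, and Herpud1 (−1.68) and Xbp1 (−1.29), genes of the response to unfolded proteins, fell. Hspb8, a small heat shock protein of muscle, had 102, 117, 123 and 130 CPM at day 3 and 4.52, 4.95 and 6.57 CPM in uninjured muscle (4.48 ± 0.34).

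Most genes of the circadian clock were lower at day 3. The clock time of collection is unstated for both groups, and its part in these changes was not tested. Of 20, 15 fell, 2 rose and 3 did not pass (median −1.76), and their summed level was 411 to 464 CPM at day 3 and 1320 to 2050 CPM in uninjured muscle. Nr1d1, the repressor REV-ERB alpha, had 23.5, 27.5, 33.7 and 23.7 CPM at day 3 and 340, 402 and 324 CPM in uninjured muscle (−3.71 ± 0.18). Dbp, a clock output factor, had 5.81, 5.01, 3.12 and 4.33 CPM at day 3 and 122, 229 and 225 CPM in uninjured muscle (−5.39 ± 0.25). Arntl, which encodes the activator BMAL1, had 11, 8.34, 10.7 and 16.3 CPM at day 3 and 49.6, 24.6 and 32 CPM in uninjured muscle (−1.61 ± 0.30). All 4 day 3 libraries were below all uninjured ones for these 3 genes. Npas2, a partner of BMAL1, fell further (−5.65). The 2 that rose were Cry1, a repressor of BMAL1 and its partner (1.03), and Nfil3, a repressor that competes with DBP (2.02). Per2 had 7.38, 10.2, 10.1 and 10.4 CPM at day 3 and 9.37, 17.4 and 57 CPM in uninjured muscle (−1.53 ± 0.44), overlapped between the groups and did not pass without uninjured replicate 3, the highest library (−0.45). That library was the highest of its group in 14 of the 20 clock genes.

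In NAD metabolism 2 of 17 tested rose, 7 fell and 8 did not pass (median −0.49). Nampt, which encodes the slowest step in recycling nicotinamide to NAD, had 53.8, 55.3, 56.1 and 44.9 CPM at day 3 and 23.3, 22.3 and 15.4 CPM in uninjured muscle (1.36 ± 0.15). The NAD-consuming enzyme Parp1 rose (2.03), while the deacetylase Sirt2 (−2.03) and the NAD hydrolase Sarm1 (−3.62) fell.

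The widest rises, by the rule for named genes, belonged to 12 genes of which 11 had no uninjured count at all and 1, Igfbp2, a single count. Nptx1, a secreted pentraxin known from neurons, had 55.1, 61.1, 68 and 53.3 CPM at day 3, at least 458-fold higher. The keratin Krt8 (at least 415-fold), the hyaluronan synthase Has1 (at least 344-fold, a call lost with limma voom), the beta tubulin Tubb3 (at least 324-fold) and the secreted signal Wnt7b (at least 187-fold) followed. Then came R3hdml (at least 179-fold), the collagen-related secreted protein Cthrc1 (at least 179-fold), the glycosyltransferase Gcnt1 (at least 155-fold) and the protease inhibitor Cst6 (at least 144-fold). Ms4a7 and Slc11a1, both known from macrophages, were at least 131-fold and at least 131-fold higher.

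The widest falls included several genes of secreted and signalling proteins. Chrdl2, an antagonist of bone morphogenetic proteins, had 1.1, 0.834, 0.742 and 1.97 CPM at day 3 and 638, 595 and 539 CPM in uninjured muscle (−8.95 ± 0.38). Edn3, an endothelin, had 3.77, 1.81, 1.93 and 5.12 CPM at day 3 and 577, 575 and 774 CPM in uninjured muscle (−7.65 ± 0.43). Day 3 libraries held at most a few CPM of either gene. The activin subunit Inhbb (−8.46), Nap1l5 (−8.07), the chemokine Ccl19 (−7.80), the matrix protein Hmcn2 (−7.56) and the lipogenic factor Thrsp (−7.46) also fell. Tac4, which encodes tachykinins, had 1 count at day 3 and was lower by a pooled 797-fold (95% interval 143 to 31500). Spock3, with 1 count, and Slc22a3, with 2, were lower by 269-fold (95% interval 47.7 to 10700) and 237-fold (95% interval 65.3 to 1970).

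Day 3 was set against day 1 at the same ZT4 to see which of these changes belong to the later day. The day 3 libraries are the same as above, so the values stand side by side and the 2 comparisons are not independent. With edgeR, 6401 genes passed (42.4%), 3126 higher at day 3 (20.7%) and 3275 lower (21.7%), with a median of −0.01 over all genes. The myogenic regulators went both ways against day 1, 7 higher and 7 lower of 16 (median −0.58), as did fusion and adhesion genes, 10 higher and 6 lower of 17. Among the higher were Myog and Mymk. Myog had 1578 ± 137 CPM at day 3 and 6.18 ± 2.72 CPM at day 1 (SD, n = 4 each; 8.0 ± 0.60), and Mymk had 273 ± 25.2 CPM at day 3 and 0.466 ± 0.315 CPM at day 1 (9.12 ± 0.58). Myh3 had 2 counts in the 4 day 1 libraries together, a pooled ratio of 4400-fold (95% interval 1220 to 36300) of day 3 over day 1. In day 1 against uninjured muscle 9691 genes passed (64.2%), 30.1% higher and 34.2% lower. Both Myog and Mymk were lower at day 1 than in uninjured muscle (−5.69 ± 0.57 and −6.77 ± 0.61).

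Relative to day 1, sarcomere genes were higher in 23 of 30, lower in 3 and not past the threshold in 4. Genes of synapse and calcium handling were higher in 13 of 17 and lower in 1. Eno3 had 1816 ± 125 CPM at day 3 and 57.2 ± 13.9 CPM at day 1 (4.99 ± 0.20), and day 1 did not pass against uninjured muscle (−0.04 ± 0.18, adjusted p = 0.878). Cdkn1c had 508 ± 130 CPM at day 3 and 6.04 ± 2.35 CPM at day 1 (6.38 ± 0.55), although its day 3 and uninjured libraries overlapped. Oxidative phosphorylation genes were higher in 27 of 30 and lower in 1 (median 0.55).

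The cell cycle lists parted between the days. Mitosis genes were higher at day 3 than at day 1 in 22 of 28, with none lower (median 1.56). Ccnb2 had 211 ± 8.36 CPM at day 3 and 18.6 ± 5.34 CPM at day 1 (3.50 ± 0.36), while day 1 did not pass against uninjured muscle (0.31 ± 0.39, adjusted p = 0.513). Of the 24 replication genes 2 were higher and 13 lower at day 3 than at day 1. Mcm3 had 340.1 ± 20.6 CPM at day 3 and 598 ± 27.4 CPM at day 1 (−0.81 ± 0.13). Ribosome biogenesis genes were lower than at day 1 in 19 of 21 and higher in none, with Ncl at 1622 ± 85.4 CPM at day 3 and 2538 ± 78.6 CPM at day 1 (−0.65 ± 0.08).

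Inflammatory genes were lower at day 3 than at day 1. Of 24 chemokine and cytokine genes 18 were lower at day 3 and 2 higher, and Csf1 had 133 ± 22.1 CPM at day 3 and 437 ± 51 CPM at day 1 (−1.72 ± 0.15). Macrophage markers summed to 695 to 1120 CPM at day 3 and 2790 to 4820 CPM at day 1, and 11 of 18 were lower at day 3, with the rest not passed. The part of the macrophage markers in the chemokine result was not tested. Immediate early genes were lower at day 3 in 15 of 22, and clock genes in 12 of 20, with none higher in either list. Among the lowest log2 fold changes to day 1 were those of S100a8 and S100a9, calcium-binding proteins of neutrophils (−7.06 and −7.21), the arginase Arg1 (−7.26) and the chemokine Ppbp (−8.01). Neutrophil markers summed to 3.12 to 5.34 CPM at day 3 and 62.4 to 236 CPM at day 1.

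**Figure D4:**
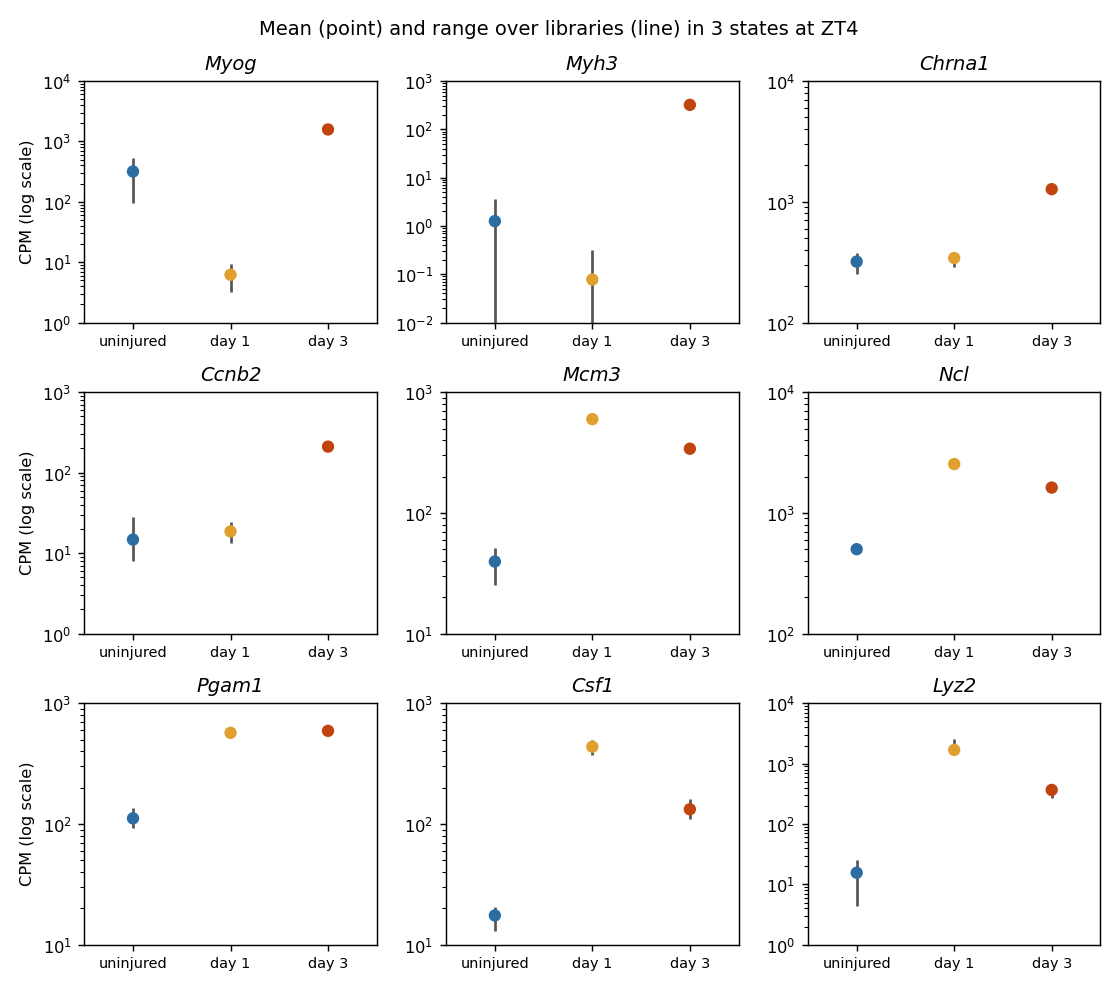
CPM (log axis) of 9 genes in uninjured muscle, at day 1 and at day 3, all at ZT4, with the mean as a point and the range over 3, 4 and 4 libraries as a line (values under 0.01 drawn at the lower edge). Myog and Myh3 were lowest at day 1 and highest at day 3, and Mcm3, Ncl, Csf1 and Lyz2 were highest at day 1.

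The same comparison at ZT16 shares no library with the one at ZT4. There 10369 genes passed in edgeR's test (68.7%), with 5100 higher (33.8%) and 5269 lower (34.9%). The difference between the log2 fold changes at the 2 times was tested itself, and 1927 genes passed (12.8%), 901 with the more positive change at ZT4 (5.97%) and 1026 with the more negative (6.8%). Of the 28 mitosis genes 0 differed between the times in edgeR's test, 4 at an unadjusted p under 0.05, 2 with DESeq2 and 0 with limma voom. Of the 16 myogenic regulators 0 differed with any of the 3 tools, and 0, 1 and 2 did so at an unadjusted p under 0.05 with edgeR, DESeq2 and limma voom. Pax7 had log2 fold changes of −3.93 ± 0.16 at ZT4 and −3.74 ± 0.16 at ZT16, and Myog 2.31 ± 0.50 at ZT4 and 2.78 ± 0.51 at ZT16.

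Immediate early genes differed in nearly the whole list. For 21 of 22 immediate early genes the change was more positive at ZT4, and none differed the other way. Their summed level was 4890, 5090, 4630 and 5820 CPM in the day 3 libraries at ZT4 and 3770, 5870 and 2350 CPM in the uninjured ones, against 2530 to 5540 CPM at day 3 and 91600, 5240 and 78700 CPM in uninjured muscle at ZT16. Uninjured ZT16 replicates 1 and 3 stood far above every other library of these 4 groups. Leaving out both leaves 1 uninjured library at ZT16, which is then assumed to vary like the libraries of the other groups. In that fit the difference was called for 473 genes in place of 1927, and for 0 of 22 immediate early genes in edgeR's test (1 at an unadjusted p under 0.05), whose median difference was 0.66 in place of 4.37. Of the 24 chemokine and cytokine genes 8 differed with edgeR, 12 with DESeq2 and 2 with limma voom. Without the 2 libraries 1 differed, with a median difference of 0.23 in place of 2.80.

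Clock genes had a median change of −1.76 at ZT4 and −3.38 at ZT16. Their summed level in uninjured muscle was 1320 to 2050 CPM at ZT4 and 2800 to 3910 CPM at ZT16. At day 3 it was 411 to 464 CPM at ZT4 and 299 to 456 CPM at ZT16. The change was more positive at ZT4 in 12 of 20 and more negative in 1, a median difference of 1.52. With the 1 remaining uninjured ZT16 library 4 and 1 did so, 12 of 20 passed at an unadjusted p under 0.05, and the median difference was 1.25. Arntl was the 1 clock gene with the more negative change at ZT4 with all libraries. It was lower than uninjured at ZT4 (−1.61 ± 0.30) and not at ZT16 (0.58 ± 0.32), where uninjured muscle had 5.28 to 13.8 CPM, and the difference was −2.19 ± 0.44 (adjusted p = 0.0019). Oxidative phosphorylation genes had the smaller rise at ZT4 in 16 of 30, a median difference of −0.45, with all libraries. With the 1 remaining uninjured ZT16 library 5 of 30 passed, 19 at an unadjusted p under 0.05, and the median difference was −0.41. By p, the 6 clearest differences were those of Dbi, Trip10, Klf13, Iqsec3, Wee1 and Slc19a2 (log2 differences −1.74, 1.78, 2.31, −2.0, 3.25 and 2.22). Wee1, the kinase that holds back mitosis, had 30, 27.4, 42 and 28.6 CPM at day 3 and 7.9, 11 and 15.1 CPM in uninjured muscle at ZT4, against 17.3 to 27.9 CPM at day 3 and 56.8 to 91.4 CPM in uninjured muscle at ZT16 (difference 3.25 ± 0.36, adjusted p = 1.08e-05). Dbi, a binding protein of acyl-CoA, had 178 ± 18 CPM at day 3 and 148 ± 19.3 CPM in uninjured muscle at ZT4, and 191 ± 10.8 CPM at day 3 and 47.9 ± 4.93 CPM in uninjured muscle at ZT16 (difference −1.74 ± 0.15, adjusted p = 2.69e-07).

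**Figure D5:**
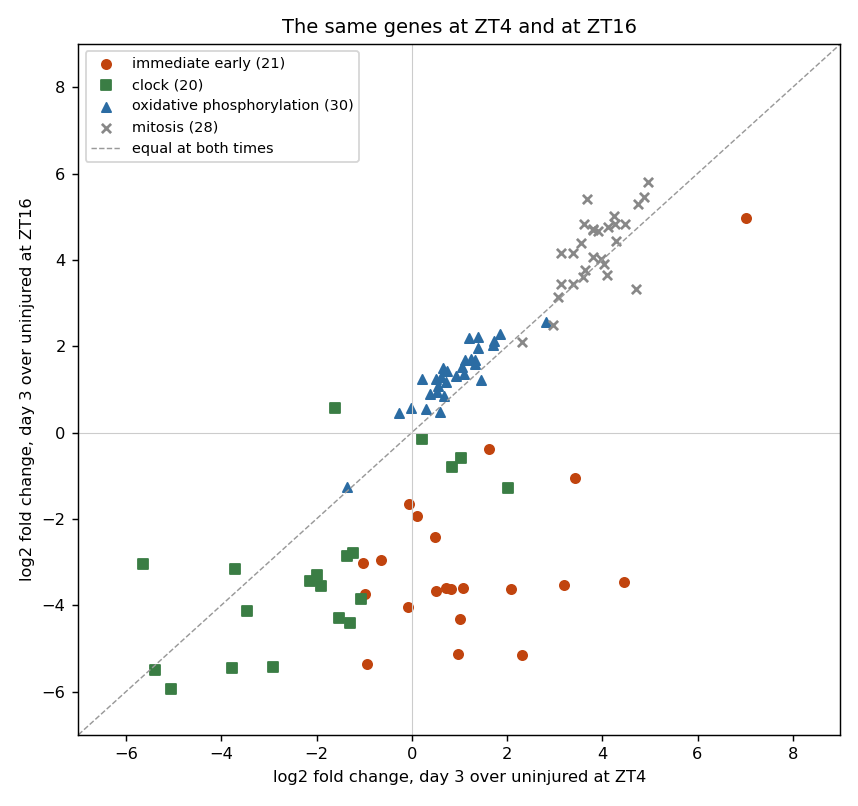
Log2 fold change of day 3 over uninjured at ZT4 (horizontal axis) and at ZT16 (vertical axis) for the members of 4 lists with more than 3 counts in both ZT4 groups, with a dashed line where both are equal. Mitosis genes (crosses) had medians of 3.81 at ZT4 and 4.27 at ZT16, and immediate early genes (circles) lie below the line, with medians of 0.89 at ZT4 and −3.56 at ZT16. In the fit without uninjured ZT16 replicates 1 and 3, which leaves 1 uninjured library there, the immediate early median at ZT16 was 0.3.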

How the data were processed

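RNA was extracted from fixed ZsGreen-positive cells with a miRNeasy FFPE kit and made into SMART-seq v4 libraries, per the labels' protocols. Trimmomatic 0.33, STAR 2.5.2, RSEM 1.3.3 and DESeq2 and the build mm10 are named in the submitters' processing notes, while their settings and the annotation release are not given in the sources used here. The authors deposited, for each library, RSEM estimated counts, TPM and effective lengths of 103732 transcripts, per the file headers. Estimated counts do not use molecular identifiers, so intervals and floors cover counting error only.

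The estimated counts were summed to 43430 genes and rounded to whole numbers, and 42546 gene IDs were matched to GENCODE M21 (GRCm38) for symbols and positions. Genes passed a filter of 10 counts, scaled to library size, in at least 3 libraries, and of 15 counts in total (edgeR's filterByExpr). The 3 is the size of the smallest group, and the libraries could come from any group. Genes without counts in 1 group could therefore pass through the groups where they are high. The filter left 15084 tested and 28346 not tested. One edgeR model (4.0.16, R 4.3.3) with a coefficient per group was fitted to all 22 libraries, 6 groups of 3 or 4, with TMM factors from 0.942 to 1.094 and a common dispersion of 0.0444, and contrasts were tested by quasi-likelihood with Benjamini-Hochberg adjustment at 0.05. CPM use the TMM library sizes. The deposited TPM served only to weight transcripts in a gene's effective length, an alternative. Other alternatives were RLE factors, no or a stricter filter, a replicate block, the compared libraries alone, limma 3.58.1, DESeq2 1.42.0 and leaving out each library. Fits without 2 libraries were added after seeing the data. The replicate numbers come from the titles. The scripts were tested on simulated data, and Python 3.11.15 was used for summaries.

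Members and the 20 pathway and 11 marker lists (562 genes) were chosen with earlier results of these data known. Named genes are the 12 highest and 12 lowest changes of day 3 against uninjured and the 6 highest and 6 lowest against day 1, among genes past the threshold with at least 10 CPM in the higher group and no overlap, up to 4 members of each list by p, the 6 clearest differences between the times, and 11 fixed genes. Others were chosen after their values were seen. For genes at 0 counts in a group a floor of 3 counts over the group gives a bound, and for 1 to 3 counts the pooled ratio is given with its exact 95% interval. Promoter windows come from a RefSeq table of GRCm38.p6.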

Additional observations from a re-analysis of the deposited data

Results flagged for a closer look

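Of 186 sets of 4 day 3 libraries examined, genes and marker sums, 14 had a library that stood apart from the other 3 by Dixon's criterion, which chance does in about 1 of 20. Day 3 replicate 1 was high for Adgre1 (21.7 CPM) and low for Ccnb2 (198 CPM), Col4a1 (44.1 CPM), Itga7 (1100 CPM) and Per2 (7.38 CPM). Replicate 2 was low for Ms4a7 (9.87 CPM). Replicate 3 was low for Myh3 (259 CPM) and Notch3 (37.6 CPM) and stood apart for Gpx3 (144 CPM). Slc22a3 (0.314 CPM), Spock3 (0.139 CPM) and Tac4 (0.139 CPM) stood out through 1 or 2 counts in 1 library. Neutrophil markers reached a sum of 5.34 CPM in 1 library, and mast cell markers had a low sum of 21.7 CPM in 1.

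The change of day 3 against uninjured differed between ZT4 and ZT16 in edgeR's test of the difference for 41 of 181 named genes. Of all genes tested 12.8% did so. The genes named as clearest by p were picked by this same test, and others after their values were seen, so the 2 shares cannot be compared. All values are log2 differences, ZT4 minus ZT16, and positive ones mean the more positive change at ZT4. Among immediate early genes they were 5.32 for Fos, 4.19 for Jun, 2.06 for Fosl1, 4.48 for Klf2 and 1.99 for Klf6. Inflammatory genes gave 2.89 for Ccl2, 2.88 for Cd68 and 0.75 for Csf1. Clock genes gave −2.19 for Arntl, 1.64 for Cry1, 3.29 for Nfil3 and 2.76 for Per2. Cell cycle genes gave 1.34 for Ccne2, −0.51 for Cdk4, 0.66 for Mcm4 and 3.25 for Wee1. Muscle genes gave −0.86 for Cdh15, −1.03 for Chrna1, −0.59 for Rapsn, −1.89 for Mrln, 1.95 for Tcap and −1.82 for the mural marker Tagln. Matrix genes gave 0.83 for Col4a1, 1.68 for Lamb1 and −0.66 for Sparc. Metabolic and folding genes gave −0.73 for Eno1, −0.46 for Pgk1, 0.79 for Nampt, 0.83 for Herpud1 and −0.54 for Pdia6. The clearest by p gave −1.74 for Dbi, 1.78 for Trip10, 2.31 for Klf13, −2.0 for Iqsec3 and 2.22 for Slc19a2. For Gcnt1 (5.59), Has1 (11.18), Il6 (8.07), Krt8 (4.95), Myh8 (5.41) and Slc11a1 (6.53) the uninjured ZT4 libraries held no count, so these fitted values depend on the prior count. Immediate early sums of 91600 and 78700 CPM in uninjured ZT16 replicates 1 and 3 stand beside these differences, and their part in them was not tested for each gene.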

How the results depend on the processing

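Counts of genes past the threshold kept within 1.5 times their value in 86 of 88 recomputed cases. For day 3 against uninjured at ZT4 (10104) they were 9591 to 9837 when 1 library was left out and 8794 to 10309 under the other planned settings. At ZT16 (10369) they were 9843 to 10061 and 9104 to 10486, for day 3 against day 1 (6401) 5565 to 5786 and 5810 to 8073, for day 1 against uninjured (9691) 9240 to 9362 and 8433 to 9834, and for the difference between the times (1927) 1309 to 2369 and 1487 to 2426. The difference between the times fell to 1259 without day 3 ZT4 replicates 1 and 2 and to 473 without uninjured ZT16 replicates 1 and 3, where 1 uninjured ZT16 library remains and the other groups supply the spread, and the cause was not tested. The median of all genes moved by 0.12 with no filter and by 0.12 without uninjured replicate 1. Single genes kept direction in every setting run, with 3109 recomputed values on the same side of the threshold, 27 that lost it and 7 that gained it. Calls were lost for Cdh15 in 14 settings, Slc2a4 in 4, Cox6a2 and Per2 in 2 each and Ckm, Has1, Hk1, Il1b and Myh2 in 1 each, and gained for Cdkn1c, Fos and Myh4 in 2 each and Jun in 1. Of list counts 464 of 494 held, and the rest were those of immediate early genes (5 to 18) and of the neutrophil, T, NK and B cell, mast cell and endothelial markers.

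With the replicate number as a block, 9926 genes passed for day 3 against uninjured at ZT4, and Myh4 passed (−1.50) while Cdh15 did not (−0.39). Libraries of equal number correlated at −0.006, 0.001 and 0.01 in their deviations from the group means, and no library correlated best with its own number. These correlations take many genes together, so they cannot exclude a pairing that affects only some genes.

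Depth limits genes with few counts, which is where ratios against uninjured muscle rest on bounds. Bulk RNA does not separate a change within stem cells from other cells collected with them. The groups hold 3 and 4 libraries, the clock time of collection is unstated, and the effect of fixation on RNA recovery was not tested.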
